A study of Mus musculus with 24 samples.

Results

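The genes described here encode the V(D)J recombinase and the end-joining machinery that repairs its breaks: Rag1, Rag2, Dntt, Xrcc5, Xrcc6, Prkdc, Dclre1c, Xrcc4, Lig4 and Atm. They were chosen by name, as 10 of the 22272 protein-coding genes considered. Each was taken as its gene body plus 20 kb on each side in the mouse build mm9 (GENCODE vM1). Peaks of all lists that overlapped by at least 1 bp were merged into sites. The 10 windows held 95 of the 90337 merged sites on the mouse chromosomes, and 69562 of those sites lay in the window of some protein-coding gene. The Rag1 and Rag2 windows overlap, and 22 of their 28 sites belong to both.

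The data are chromatin immunoprecipitation with sequencing (ChIP-seq) of CTCF, a DNA-binding protein that stops loop extrusion, and of Rad21, a subunit of the cohesin ring that extrudes loops. Every library came from a mouse pro-B line transformed with v-Abl. All of these cells are RAG2-deficient, all have the Eμ-Bcl2 transgene, and all received the Abl kinase inhibitor STI-571 at 3 µM for 4 days. Of the 24 samples, 16 have a peak list, and 8 input samples were not used here. For each antibody there were 3 untreated parental libraries and 3 libraries of IAA-treated CTCF-degron cells. For Rad21 alone, the Rad21-degron line gave a further 2 libraries without IAA and 2 with it. IAA is an auxin that directs the degron-tagged protein to degradation, given at 500 µM and starting 6 h before STI-571. In the CTCF comparisons the line and IAA change together, so the effects of the tag, the line and the loss of CTCF cannot be told apart. The labels do not say whether replicates came from separate cultures, so the spread between libraries may be technical. Peak lists do not measure expression, so the pro-B identity of the cells was not checked with markers.

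V(D)J recombination assembles immunoglobulin genes in developing B cells. RAG1 and RAG2 form the nuclease that cuts at recombination signal sequences, leaving hairpin coding ends. Ku and the kinase DNA-PKcs bind the ends, Artemis opens the hairpins, terminal transferase adds bases, and XRCC4 with DNA ligase IV seals the joint, while the ATM kinase signals the break. Peaks near these genes describe how the genes sit among CTCF and cohesin sites. They do not measure recombination, and in RAG2-deficient cells no V(D)J cutting takes place. The labels do not describe the Rag2 deletion, so peaks across Rag2 itself are given as listed.

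Each list gives a fold enrichment per peak, the authors' own value, used here only to describe peaks. A control site is one with a peak in every untreated list of its comparison. It was counted as lost with no peak in any depleted list, kept with a peak in every one, and partial otherwise. Lists of untreated cells held between 22084 and 67809 mouse peaks, CTCF-degron lists with IAA between 8214 and 35223, and Rad21-degron lists with IAA 1383 and 3587. The read depth behind them is unknown, since peak lists carry no reads. A site without a peak is one at which none was called in that list. Spiked-in human HCT116 cells (a colorectal carcinoma line) are named in the titles of 8 lists, all 4 of the Rad21-degron line and Rad21 replicates 2 and 3 of the parental and CTCF-degron lines. Replicate 1 of both those Rad21 groups had none and held the most peaks of its group, with 71 of the 95 sites in the parental list and 50 in the CTCF-degron list. In the other Rad21 lists of those groups the number was between 19 and 42.

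A core CTCF motif, CCNNNAGNNGGC on either strand, was found in 18 of the 30 sites with a CTCF peak in all 3 parental lists. Over the genome, leaving out chromosomes 12 and Y, it was found in 56.9% of 31927 such sites and in 14.8% of stretches of the same length 5 kb away. Of the 18 member sites whose CTCF peak was lost, 11 held it, as did 4 of the 7 partial and 3 of the 5 kept ones. The shares over the genome were 57.7% of lost, 57.1% of partial and 52.4% of kept sites. Stretches of 60 bases around the motif, outside annotated exons, show 3 sites with different fates. They are written from 5′ to 3′ on the strand of the motif, with the motif in capitals, from the mm9 reference. The Rag1 upstream site kept CTCF and Rad21, the Dntt site lost CTCF, and the Xrcc4 site lost both.
Rag1 upstream, chr2:101505594-101505653, plus strand: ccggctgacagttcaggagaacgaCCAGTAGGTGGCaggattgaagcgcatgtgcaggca
Dntt, chr19:41128168-41128227, minus strand: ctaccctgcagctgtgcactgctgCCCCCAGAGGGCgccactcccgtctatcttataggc
Xrcc4, chr13:89919020-89919079, plus strand: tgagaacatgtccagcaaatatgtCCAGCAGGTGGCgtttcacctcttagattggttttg

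The commonest spelling of the motif, CCAGAAGAGGGC, was picked after the counts were seen. It stood in 14.3% of all CTCF sites and in 3.93% of stretches 5 kb away, and 83.5% of the CTCF sites that held it were lost. Of all 31927 CTCF sites, 22276 were lost. At the 10 genes this spelling stood in 12 sites, 7 of them CTCF control sites. As merged sites, 5 of the 7 lost CTCF, 1 was partial and 1 kept it. Over the stretches with this spelling themselves, no CTCF peak was called after degradation at any of the 7. Among the 13 stretches of these sites, 6 matched the Xrcc5 promoter stretch at 50 or more of 60 positions, that stretch included. The following 3, from different chromosomes, show how alike the surrounding bases were. As background, B2 SINE repeats are known to carry a CTCF motif, and no repeat annotation was used here.
Xrcc5 promoter, chr1:72353264-72353323, plus strand: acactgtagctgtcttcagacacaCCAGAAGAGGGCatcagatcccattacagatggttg
Rag1 intron, chr2:101486208-101486267, minus strand: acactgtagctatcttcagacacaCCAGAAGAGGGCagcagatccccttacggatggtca
Xrcc6, chr15:81857058-81857117, plus strand: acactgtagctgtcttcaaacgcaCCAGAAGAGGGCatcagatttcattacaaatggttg
The Rag1 stretch was identical to the Xrcc5 stretch at 54 of 60 positions and the Xrcc6 stretch at 55. The Xrcc5 and Rag1 sites lost CTCF, and the merged Xrcc6 site, 3083 bp wide, kept a CTCF peak in all 3 depleted lists. Those peaks lay elsewhere in the merged site. Over the Xrcc6 stretch itself a CTCF peak was called in all 3 parental lists and in no depleted list. The same held for the stretch of this spelling in the partial site, chr15:81874366-81878508, 4143 bp wide. Its CTCF peaks after degradation, in replicate 1 alone, also lay elsewhere in the merged site.

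Of the 95 sites, 22 were promoter sites, within 1 kb of an annotated start of a protein-coding gene, and 73 were distal. A CTCF peak was present in all 3 parental lists at 30 sites, in 1 or 2 at 25 and in none at 40. Rad21 was present in all 3 parental lists at 31 sites, of which 23 also had CTCF in all 3, 7 had it in 1 or 2, and 1, at the Dntt start, had none. Both untreated Rad21-degron lists had a Rad21 peak at 19 sites, each of them among the 31. A peak in a single list made up 36 sites, and 19 sites had one in 10 or more lists. Summed window by window, the windows held 2.55 CTCF and 2.87 Rad21 control sites per 100 kb, beside 2.50 and 1.92 over all gene windows. In these sums, sites and bases shared by overlapping windows, as of Rag1 and Rag2, count for each gene. The values per 100 kb thus do not follow from the 30 and 31 sites, which count each site once.

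**Figure D1:**
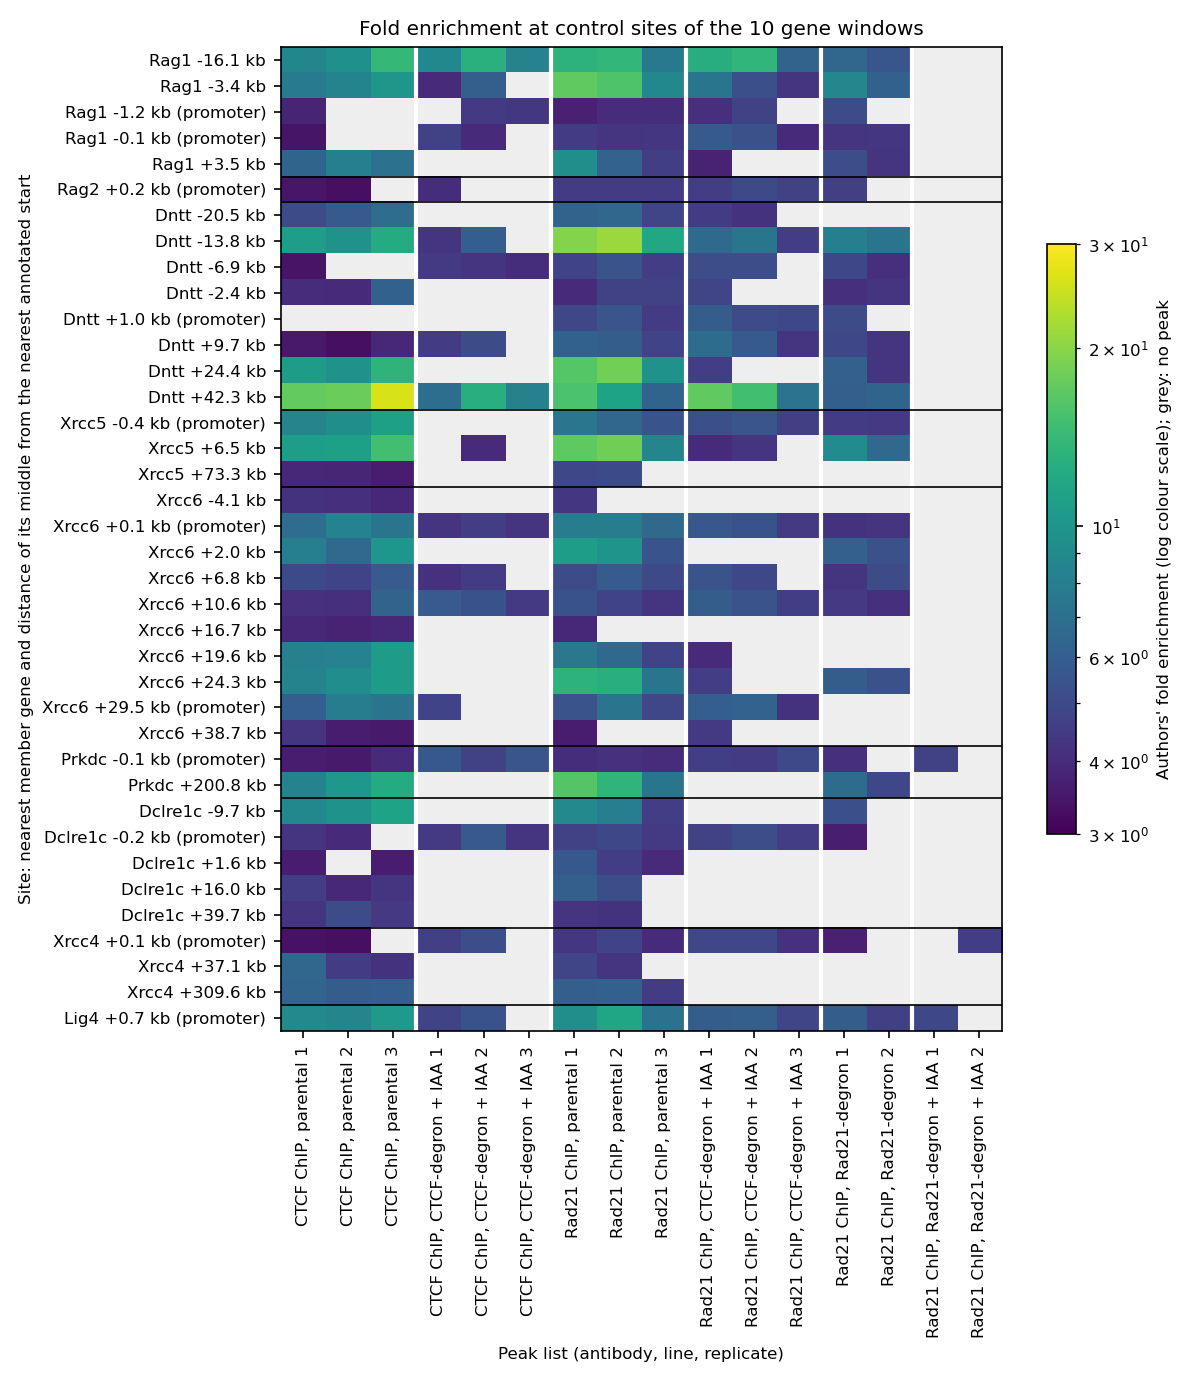
Authors' fold enrichment (log colour scale, grey where no peak was called) at the 38 sites that are control sites in at least 1 comparison, by list, with sites named by nearest member gene and the distance from an annotated start. The Rad21-degron lists with IAA are grey but for 3 promoter cells (Prkdc, Xrcc4 and Lig4), and CTCF is left at a minority of sites after CTCF degradation.

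After CTCF degradation, CTCF was lost at 18 of the 30 control sites (60%), partial at 7 and kept at 5. Over all gene windows 70.4% of 26853 control sites were lost and 12.2% kept. With the lists shortened to the shortest the order turned, with 7 of 11 lost (63.6%) beside 50.7%. Promoter sites lost CTCF in 1 of 5 cases beside 35.9% over all genes, and distal sites in 17 of 25 beside 78.9%. The 5 that kept a peak were the Rag1 upstream site, a site downstream of Dntt, the Prkdc promoter, the Xrcc6 promoter and a site 10550 bp from an annotated Xrcc6 start. The mean control fold enrichment of lost sites ran from 3.79 to 11.3 and that of kept sites from 3.68 to 20.4, so the ranges overlap.

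Rad21 degradation left no list with a peak at 18 of 19 Rad21 control sites, beside 92.1% of 14441 over all genes. The exception was the Lig4 promoter. A Rad21 peak was called after Rad21 degradation at 5 of the 95 sites, 4 in replicate 1 and 1 in replicate 2, and all 5 were promoter sites (Prkdc, Lig4, Atm, Xrcc4 and, in the Dclre1c window, Suv39h2). Over all gene windows 71.0% of the 2650 such sites were promoter sites. Each of the 5 also had a CTCF peak in a CTCF-degron list with IAA, as did 90.0% of the 2650. What these peaks stand for was not tested.

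After CTCF degradation, Rad21 was lost at 5 of 31 control sites (16.1%), partial at 10 and kept at 16 (51.6%). Over all genes 41.0% of 20321 control sites lost Rad21 and 36.3% kept it. Rad21 stayed at 10 of 11 promoter sites beside 68.6% over all genes, and at 6 of 20 distal sites beside 25.1%. The share lost depended on the lists and on which sites counted. Without replicate 1 of the CTCF-degron line it was 10 of 31 (32.3%), and without replicate 3 of the parental line 12 of 42 (28.6%), beside 46.2% over all genes in both cases. With the lists shortened to the shortest it was 6 of 12 (50%) beside 53.7% over all genes, and with a peak covering 50% of the site 5 of 6 (83.3%) beside 67.9%, so the gap to all genes closed or turned. Rad21 peaks were present at 83.9%, 67.7% and 51.6% of the 31 sites in replicates 1, 2 and 3, beside 57.4%, 53.4% and 36.8% over all genes. Replicate 1 holds no spike-in and the most peaks, and the part of either in the result was not tested.

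Rad21 was grouped by what CTCF did at the same sites. Where CTCF was lost, 4 of 11 sites lost Rad21, 6 were partial and 1, the Xrcc5 promoter, kept it. At each of the 6 except chr19:41082647-41083956, the only Rad21 peak after CTCF degradation was in replicate 1, which has no spike-in. Without that list 10 of the 31 Rad21 control sites were lost, beside 46.2% over all genes. The shares over all genes by CTCF fate were not recalculated without it. Of 7 sites with partial CTCF, 5 kept Rad21 and 2 were partial. All 5 sites with kept CTCF kept Rad21. Over all genes Rad21 was lost at 76.0% of the sites that lost CTCF, 1.28% of those with partial CTCF and 0.0385% of those that kept it. In the same order, Rad21 was kept at 5.18%, 66.7% and 93.1% of these sites over all genes. No member site gained a peak in all depleted lists with none in the controls in any of the 3 comparisons. Over all genes such sites were also rare, at 0.181%, 0.112% and 0.160% of 69562 for CTCF after CTCF degradation, Rad21 after Rad21 degradation and Rad21 after CTCF degradation.

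**Figure D2:**
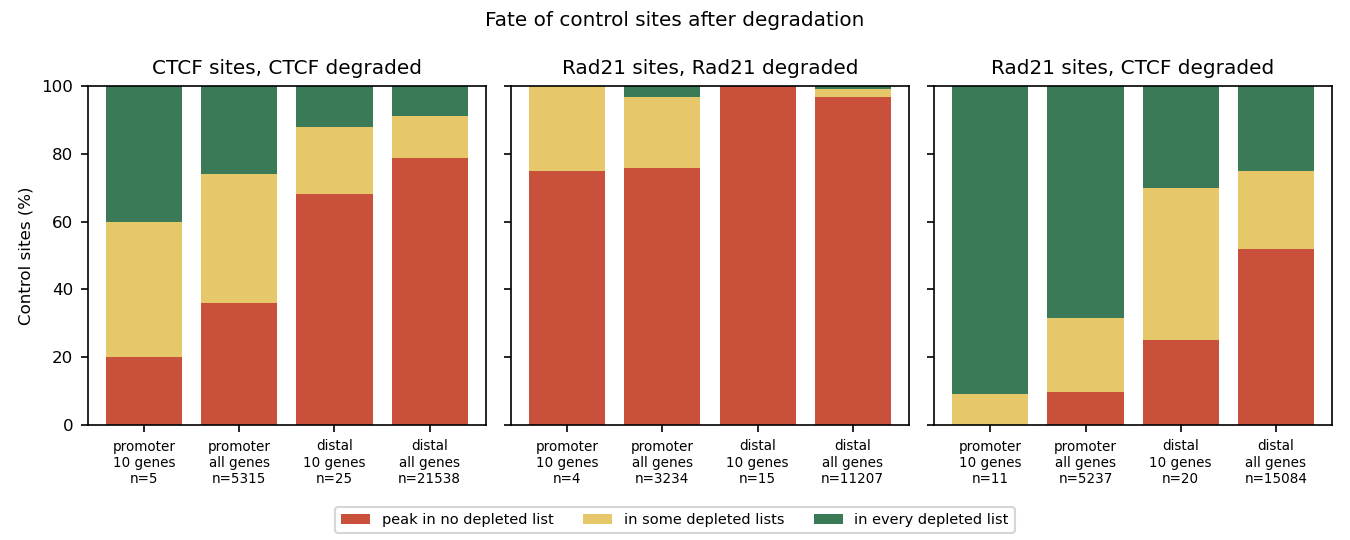
Percent of control sites with a peak in no, some or every depleted list (y axis), for promoter and distal sites of the 10 genes and of all genes, with the number of sites under each bar. Rad21 after CTCF degradation stayed at 90.9% of the promoter sites of the 10 genes and at 68.6% of those of all genes.

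At their own promoters, 9 of the 10 genes had a site with Rad21 in all 3 parental lists, beside 24.8% of 22264 protein-coding genes. Atm was the exception. Dntt counted through a merged site 2686 bp wide. There the Rad21 peak of parental replicate 3 lay 1.88 to 2.11 kb after the start, beyond 1 kb. With only peaks at a q-value of 0.001 or less the count was 3 genes, Xrcc5, Xrcc6 and Lig4, beside 12.8% of genes. The other 6 thus rested on a weaker peak in at least 1 list. CTCF in all 3 parental lists marked the promoters of 4 genes, Xrcc5, Xrcc6, Prkdc and Lig4, beside 24.9% of genes. In all 3 CTCF-degron lists Rad21 was called at sites reaching the same 9 promoters, beside 28.3%. At Dntt the peaks of replicates 2 and 3 lay beyond 1 kb from the start. CTCF was called in 2 or 3 CTCF-degron lists at the promoters of 7 genes, Rag1, Xrcc4, Xrcc6, Prkdc, Lig4, Dclre1c and Atm, beside 22.9%. Several of these starts are shared: Rag1 with B230118H07Rik, Prkdc with Mcm4, Lig4 with Abhd13, Atm with Npat, Xrcc4 with Tmem167, Dclre1c with Meig1, and Xrcc6 with Pppde2.

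Rag1 encodes the catalytic subunit of the recombinase and lies on the minus strand at chr2:101478439-101489658. The site in its intron, chr2:101485792-101486620, had parental CTCF fold enrichments of 6.28, 8.08 and 7.13 and no CTCF peak after degradation. Rad21 there was 9.34, 6.20 and 4.61 in the parental lists and 3.73 in replicate 1 of the CTCF-degron line, with no peak in the others. This was the CTCF site inside Rag1 that was lost in every depleted list. Upstream, 3447 bp from the start, chr2:101492608-101493603 had CTCF at 7.75, 8.49 and 10.2, and after degradation at 3.98 and 6.05 in replicates 1 and 2 only. Rad21 at that site was 17.1, 15.9 and 8.78 in the parental lists and 7.32, 5.25 and 4.24 after CTCF degradation. All 3 depleted values lay below all 3 control values, though the site stayed occupied in each list.

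A site 16071 bp upstream of Rag1, chr2:101505168-101506291, stayed occupied in both groups. CTCF was 8.61, 9.54 and 13.9 in the parental lists and 8.78, 12.9 and 8.32 after CTCF degradation, so the groups overlapped. Rad21 was 13.3, 13.7 and 7.64 and then 12.5, 13.6 and 6.26, slightly lower in each same-numbered pair. Both proteins thus stayed at this site in every list of CTCF-degron cells, whereas Rad21 in the Rad21-degron line was 6.43 and 5.54 without IAA and absent with it. At the Rag1 start, chr2:101489221-101490207, Rad21 was 4.49, 4.27 and 4.30 in parental and 5.76, 5.33 and 3.99 in CTCF-degron lists. CTCF there was called in 1 parental list, at 3.42, and in 2 CTCF-degron lists, at 4.67 and 3.96. Of the further sites at Rag1 starts, chr2:101490282-101491498 had Rad21 in all parental lists, at 3.69, 4.02 and 4.04, and in CTCF-degron replicates 1 and 2, at 4.14 and 4.73. The other, chr2:101488074-101488895, had it in parental replicates 1 and 2 only, at 3.92 and 4.11.

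**Figure D3:**
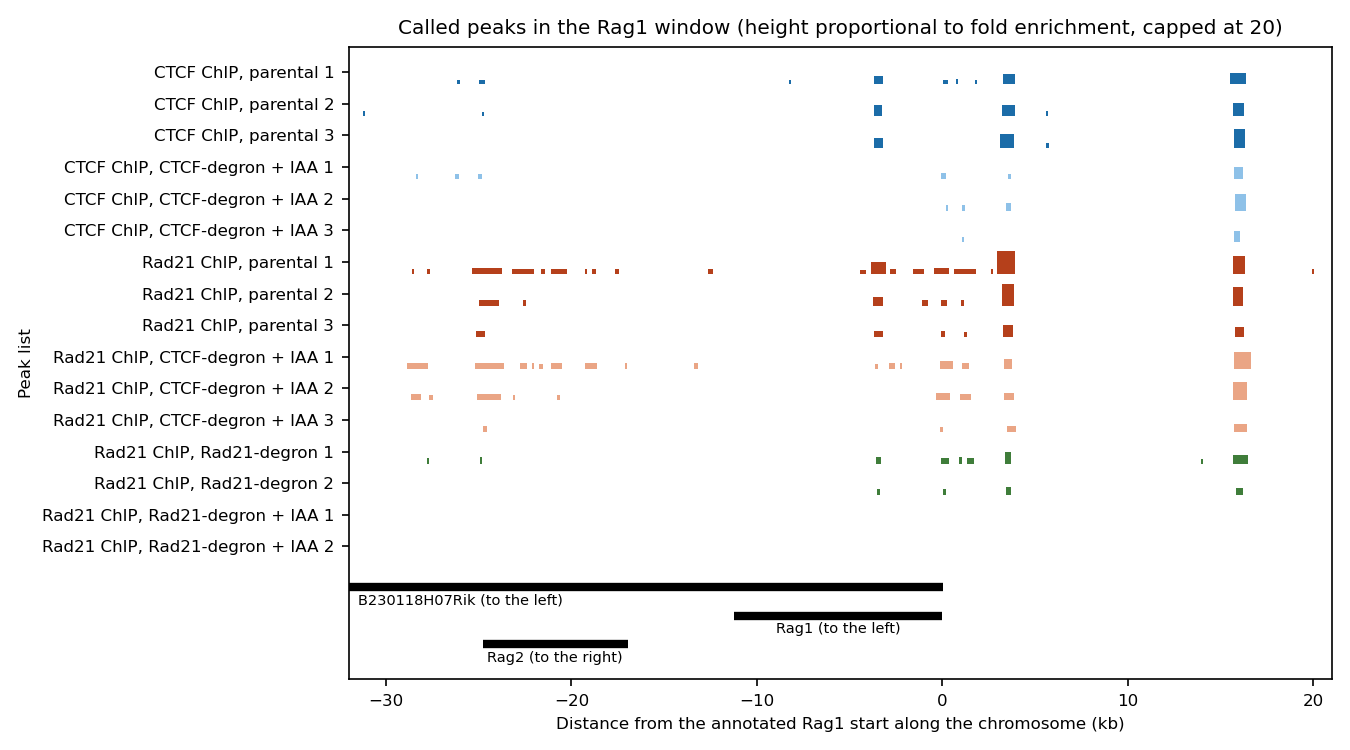
Called peaks in the Rag1 window by list, against the distance in kb along the chromosome from the annotated Rag1 start (Rag1 runs to the left, so upstream is positive), with peak height proportional to the authors' fold enrichment. The site near 16 kb is present in all CTCF and Rad21 lists except the Rad21-degron lists with IAA, which hold no peak in the window.

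Rag2 encodes the partner subunit of the recombinase and lies on the plus strand at chr2:101464875-101472685, facing Rag1. Its start site, chr2:101464275-101465998, had Rad21 at 4.49, 4.48 and 4.46 in the parental lists and at 4.56, 5.01 and 4.74 after CTCF degradation. CTCF there was called in parental replicates 1 and 2, at 3.45 and 3.31, and in 1 CTCF-degron list, at 4.06. The median fold of the parental Rad21 lists was between 4.36 and 5.39, so the start site was not a strong one. Another 6 sites lay across Rag2, none with a CTCF peak and none a control site. At each of them replicate 1 of the parental or the CTCF-degron line had a Rad21 peak, between 3.57 and 4.48.

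Dntt encodes terminal transferase, which adds bases without a template to the coding ends, and lies at chr19:41103765-41134013. Its start site, chr19:41103444-41106129, had no CTCF peak in any list, and Rad21 was 4.95, 5.49 and 4.51 in parental and 5.89, 5.12 and 4.94 in CTCF-degron lists. Except in parental replicate 1, these values came from peaks more than 1 kb after the start. The site was the only one of the 31 Rad21 control sites without CTCF in any parental list. Just before it, chr19:41102890-41102940 had a Rad21 peak in parental replicate 1 alone, at 3.78. In the gene, chr19:41127558-41128756 had CTCF at 10.6, 9.73 and 13.4 and none after degradation, and Rad21 at 16.4, 18.4 and 9.69 against 4.58 in replicate 1 of the CTCF-degron line alone. Upstream, chr19:41088363-41091662 had Rad21 at 19.5, 21.3 and 11.9 in the parental lists and at 6.61, 7.36 and 4.56 after CTCF degradation. CTCF there was 10.9, 9.69 and 12.3 in the parental lists and then 4.24 and 5.97 in replicates 1 and 2. The peak of 4.24 lay at -15.2 to -14.9 kb from the start, apart from the parental peaks that gave those values. The peak of 5.97 overlapped them.

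The strongest CTCF site of the windows lay in an intron of the neighbouring gene Opalin, chr19:41145629-41146479. CTCF was 17.2, 17.8 and 26.1 in the parental lists and 6.88, 12.8 and 8.15 after degradation, so it was kept at lower values. Rad21 there was 15.6, 11.4 and 6.31 in parental and 17.0, 14.9 and 7.21 in CTCF-degron lists, so the CTCF-degron list was the higher in each same-numbered pair while the ranges overlapped. Rad21 in the Rad21-degron line was 6.02 and 6.33 without IAA, with no peak with IAA.

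**Figure D4:**
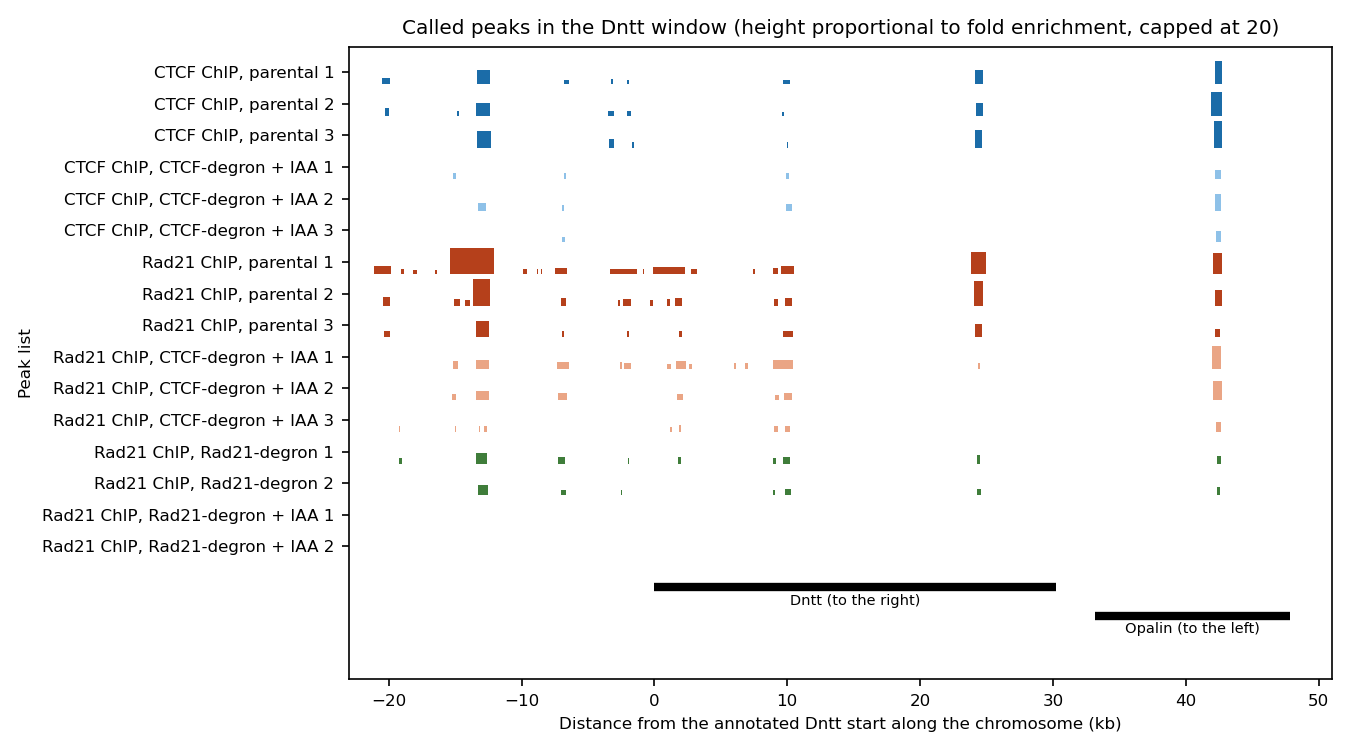
Called peaks in the Dntt window by list, against the distance in kb from the annotated Dntt start, with height proportional to the authors' fold enrichment. The CTCF peak near 24 kb is absent from the CTCF-degron lists, and the one near 42 kb, in Opalin, is in all of them.

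Xrcc5 and Xrcc6 encode the Ku subunits that bind broken ends, and Prkdc encodes the catalytic subunit of the kinase they recruit. The Xrcc5 promoter site, chr1:72352787-72354407, had CTCF at 8.52, 9.44 and 11.1, with none after degradation. Rad21 there was 7.41, 6.39 and 5.46 in parental lists and 5.26, 5.49 and 4.65 in CTCF-degron lists. It was the site that kept Rad21 in every list after losing CTCF. The merged site is 1621 bp wide. Its Rad21 peaks in CTCF-degron replicates 1, 2 and 3 began at -0.419, -0.183 and -0.217 kb from the start. None lay over the Xrcc5 stretch shown above. Another motif of the site, nearer the start, lay under the replicate 1 peak alone. In the gene, chr1:72360012-72361016 had Rad21 at 16.9, 18.2 and 8.61, and after CTCF degradation 3.94 and 4.28 in replicates 1 and 2 with no peak in replicate 3. CTCF there was 10.8, 11.1 and 14.9 and then 4.00 in replicate 2 alone. A weaker site, chr1:72427175-72427411, lost CTCF, which was 3.89, 3.85 and 3.62. A last peak at the start, chr1:72354455-72354520, was Rad21 in CTCF-degron replicate 1 alone, at 4.53.

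Xrcc6 had the most CTCF control sites, 10 of the 30, in a window of 92.3 kb with 5 other protein-coding genes. Of these, 6 were lost, 2 partial and 2 kept. The promoter site, chr15:81845229-81848907, had CTCF at 6.81, 8.33 and 7.37 in parental lists and 4.30, 4.55 and 4.25 after degradation. Rad21 there was 7.92, 7.90 and 6.66 and then 5.62, 5.35 and 4.43, so both proteins were kept at values below all controls. A site in the neighbour Nhp2l1, chr15:81870736-81871775, lost CTCF, which was 8.41, 9.26 and 10.8, and kept Rad21 in replicate 1 alone, at 4.54 beside 13.3, 12.9 and 7.36 in parental lists. In Xrcc6, chr15:81819811-81820737 lost both proteins, with CTCF at 8.09, 6.61 and 10.0 and Rad21 at 10.9, 9.86 and 5.46 in the parental lists. The site whose stretch is shown above is chr15:81855954-81859036. No CTCF peak after degradation lay over that stretch. The site had CTCF at 4.17, 4.08 and 6.22 in the parental lists and at 5.81, 5.37 and 4.43 after degradation, and these ranges overlapped. Another with the same spelling of the motif, chr15:81866078-81866968, had CTCF at 8.17, 8.36 and 10.6 and lost it, and kept Rad21 in CTCF-degron replicate 1 alone, at 3.95 beside 7.50, 6.60 and 4.78.

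Prkdc, a gene of 204 kb, held 2 sites, and they had opposite fates. At its start, chr16:15637381-15638360, CTCF was 3.57, 3.53 and 3.95 in the parental lists and 5.66, 4.74 and 5.49 after CTCF degradation. The depleted values all lay above the control values, and fold enrichment was not tested between groups. In its last part, chr16:15838342-15839137 had CTCF at 8.44, 10.3 and 12.4 and Rad21 at 16.2, 13.6 and 7.34, with neither called in any CTCF-degron list. Rad21 at the start was 4.06, 4.17 and 4.04 in parental lists and 4.59, 4.48 and 4.99 in CTCF-degron lists, and it was also called in replicate 1 of the Rad21-degron line with IAA, at 4.67.

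Dclre1c encodes Artemis, the nuclease that opens the hairpins. Its start, chr2:3340249-3342094, had Rad21 at 4.67, 4.96 and 4.46 in parental and 4.68, 5.15 and 4.56 in CTCF-degron lists. CTCF there was called in parental replicates 1 and 2, at 4.27 and 3.99, and in all 3 CTCF-degron lists, at 4.44, 5.72 and 4.28. In an intron of the neighbour Meig1, chr2:3331318-3332131 had CTCF at 8.78, 9.80 and 11.4 and Rad21 at 8.88, 8.06 and 4.55, and neither was called after CTCF degradation. The start and this intron, 9679 bp before it, thus differed in what remained. The other 2 CTCF control sites of the window were lost too, chr2:3373875-3374298, at 4.55, 3.89 and 4.25, and chr2:3397551-3398067, at 4.29, 5.07 and 4.40.

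Xrcc4 encodes the scaffold of the ligation complex and spans 316 kb, yet its window held 4 sites. Far inside the gene, chr13:89918633-89919472 had CTCF at 6.34, 5.89 and 5.97 and Rad21 at 6.02, 6.15 and 4.46, and both were lost after CTCF degradation. A second CTCF site that was lost, chr13:90191396-90191719, had 6.51, 4.52 and 4.21. The start, chr13:90228261-90229884, had Rad21 at 4.31, 4.80 and 3.96 in parental and 4.88, 4.88 and 4.17 in CTCF-degron lists. It was also one of the promoters with a Rad21 peak after Rad21 degradation, at 4.57 in replicate 2.

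Lig4 encodes DNA ligase IV, which seals the joint. Its promoter, chr8:9975892-9978169, carried CTCF at 8.85, 8.58 and 10.4 in the parental lists and at 4.81 and 5.35 in replicates 1 and 2 after degradation. Rad21 there was 9.39, 11.7 and 7.14 in parental and 5.92, 6.04 and 4.85 in CTCF-degron lists. All CTCF-degron Rad21 values were below all parental ones. A neighbouring site at the Lig4 start, chr8:9975268-9975734, had a CTCF peak, at 3.86, and a Rad21 peak, at 3.79, in parental replicate 1 alone. In the Rad21-degron line Rad21 at the promoter was 5.90 and 4.63 without IAA and 4.93 in replicate 1 with IAA.

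Atm encodes the kinase that signals double-strand breaks, and its window of 138 kb held 2 sites and no control site. Its start, chr9:53344744-53345200, had CTCF in parental replicates 1 and 3, at 3.86 and 3.63, and in CTCF-degron replicates 1 and 2, at 4.14 and 4.45. No parental Rad21 list had a peak at Atm. Rad21 was called there in 1 CTCF-degron list, at 4.21, in 1 untreated Rad21-degron list, at 3.84, and in 1 Rad21-degron list with IAA, at 4.83.

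Peaks were also counted in each gene window per library. CTCF peaks were fewer in every CTCF-degron library than in every parental one at 6 of the 10 genes, Dntt, Xrcc4, Xrcc5, Xrcc6, Prkdc and Dclre1c, beside 71.7% of 17875 genes with a peak. With the lists shortened to the shortest this held at 2 of the 10. At a fold enrichment of 4 or more it held at 3. In the Xrcc6 window the number went from 17.0 ± 1.73 (SD, n = 3) to 3.67 ± 1.53 (SD, n = 3). Rad21 peaks were fewer in both Rad21-degron libraries with IAA than in both without at 5 genes, Rag1, Rag2, Dntt, Xrcc5 and Xrcc6, beside 72.0%. It held at 0 genes with shortened lists and at 8 without replicate 1 of the Rad21-degron line with IAA. In the Dntt window the counts went from 8.0 ± 1.41 (SD, n = 2) to 0 in both. For Rad21 after CTCF degradation the groups did not overlap at 2 genes, Xrcc4 and Prkdc, beside 21.8%, and 4 genes (these with Xrcc5 and Dclre1c) were lower in every same-numbered pair, beside 43.3% of genes. The groups did not overlap at 0 genes with shortened lists, with 50 kb windows or at a q-value of 0.001 or less, at 1 gene at a fold of 4 or more, and at 5 without parental replicate 3. Shares of all gene windows were calculated only for the reported setting and the same-numbered pairs. The counts under other settings thus have no like share to be set beside.

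With 3 libraries against 3 an exact two-sided permutation test cannot go below p = 0.1, and with 2 against 2 not below 0.33. The Benjamini-Hochberg adjusted p over all genes was at least 0.139, 0.461 and 0.456 in the 3 comparisons, so no gene passed 0.05, with 0 genes at an unadjusted p below it. The median change of the 10 genes on the log2(peaks + 1) scale was -0.78, -1.40 and -0.49, beside -1.19, -1.29 and -0.54 over all genes.

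**Figure D5:**
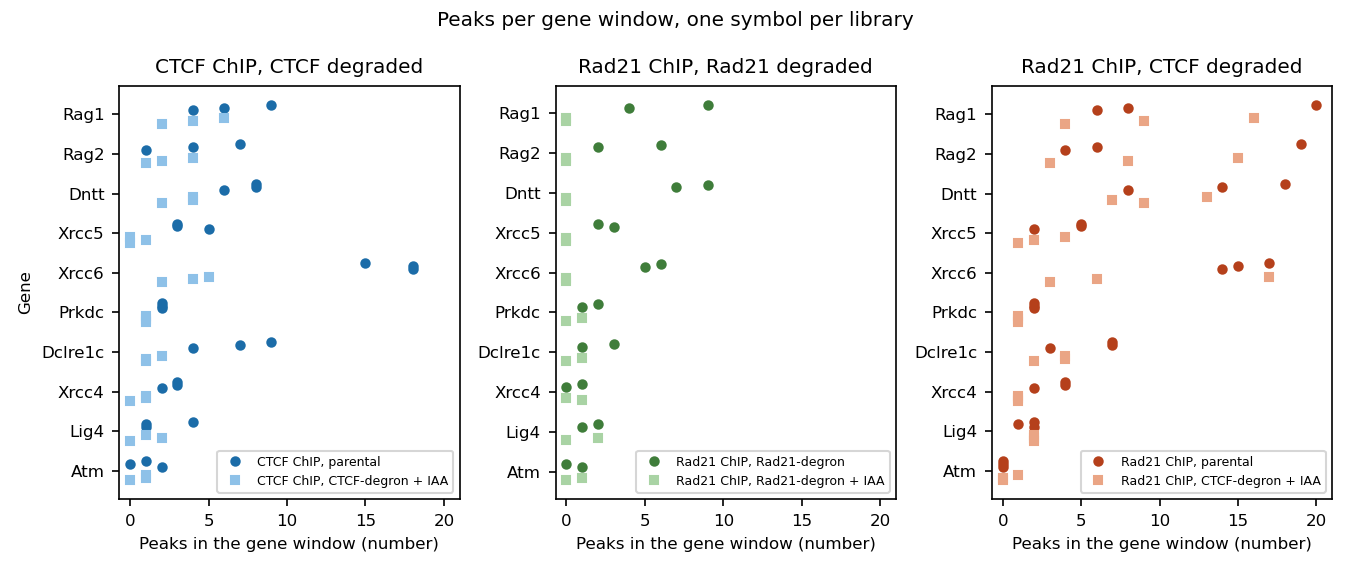
Number of peaks in each gene window (x axis), 1 symbol per library, for controls (circles) and depleted libraries (squares). Xrcc6 has between 15 and 18 CTCF peaks in parental and between 2 and 5 in CTCF-degron libraries, whereas the Rad21 counts of Rag1, Rag2 and Xrcc6 overlap between parental and CTCF-degron libraries.

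Another 22 genes of end joining and break signalling, among them Nhej1, Trp53bp1 and Mre11a, were treated the same way and held 165 sites. CTCF was lost at 44 of their 70 control sites (62.9%), beside 70.4% over all genes, and kept at 9 (12.9%), beside 12.2%. Rad21 was lost at 37 of 45 (82.2%) after Rad21 degradation, beside 92.1%. After CTCF degradation it was lost at 25 of 68 (36.8%), beside 41.0%, and kept at 32 (47.1%), beside 36.3%. Their own promoters had Rad21 in all 3 parental lists in 15 of 22 cases, beside 24.8% of protein-coding genes.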

How the data were processed

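The members and gene lists were chosen with earlier results of these data known. The genome of the alignments joins mm9 with another sequence entry, per the labels. Bowtie2 2.2.8 and SAMtools 1.8 are named in the submitters' processing notes, and the peak caller and its threshold are not given in the sources used here. The authors deposited 1 broad peak list per library, not pooled. In these deposited lists column 5 was read as a score, column 7 as a linear ratio (the fold enrichment), and columns 8 and 9 as −log10 of p and q. Of these, the fold and the −log10 q were used.

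Peaks on mouse chromosomes were merged over the 16 lists, and a site takes the highest fold of its peaks in each list. In a wide merged site the peaks of different lists need not overlap each other. Peaks per gene window were compared by an exact two-sided permutation test of mean log2(peaks + 1), adjusted by Benjamini-Hochberg over all genes. On simulated data with 200 of 22272 genes lowered 8-fold, groups did not overlap at 86.5% (CTCF), 93% (Rad21, Rad21 degradation) and 89% (Rad21, CTCF degradation) of these genes, and at 2.59%, 8.92% and 2.55% of the others. The simulated counts were random (Poisson) with the same mean in every library of a group. Only windows above a set minimum of control peaks were lowered. The real lists of a group differ in size, so these rates do not carry over to the real windows. Chromosome 12 windows beyond 110 Mb were left out, because peak ends there exceed the mm9 length. The text names each site at a member's own start and up to 3 further control sites per member, ranked by fold percentile in the parental lists. Same-numbered libraries deviated together weakly for Rad21 in the parental and CTCF-degron lines (correlations 0.209, 0.109 and 0.164). Replicate 1 also lacked the spike-in in both groups, and its part in these correlations was not tested. Same-numbered pairs are given for description only, and the permutation test took the libraries as unpaired in every comparison. Python 3.11.15, numpy 2.4.6 and matplotlib 3.10.9 were used.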

Additional observations from a re-analysis of the deposited data

How the results depend on the processing

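Of 77 recalculations of 8 results, 55 lay within 1.5 times the reported count and 22 did not. This compares counts and leaves out the number of sites they are taken from, so it does not measure how stable the shares were. Rad21 lost at 6 of 12 or 5 of 6 sites counted as within 1.5 times of 5 of 31. CTCF lost at 30 of 51 sites, beside 18 of 30, did not. The cause of each shift was not tested, other than that wider windows and looser control sites hold more sites. CTCF sites lost (18 of 30) were 7 of 11 with lists shortened to the shortest, 30 of 51 with 50 kb windows, 10 of 12 with a peak covering 50% of the site and 34 of 55 with sites of at least 1 control list. Leaving out 1 library gave 18 to 20. Rad21 sites lost after Rad21 degradation (18 of 19) were 8 of 8 at a q-value of 0.001 or less and 30 of 31 with 50 kb windows, and 18 to 26 leaving out 1 library. Shortened lists and 50% coverage left no control site. Rad21 sites lost after CTCF degradation (5 of 31) were 14 of 50 with 50 kb windows, 31 of 71 with sites of at least 1 control list 10 of 31 in spike-in libraries alone, 6 of 12 with shortened lists, 5 of 6 with 50% coverage and 5 of 19 (26.3%, beside 52.5% over all genes) at a q-value of 0.001 or less, and 5 to 12 leaving out 1 library.

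Windows with fewer CTCF peaks (6 of 10) were 3 at a fold of 4 or more and 2 with shortened lists, and 6 in each case leaving out 1 library. Windows with fewer Rad21 peaks after Rad21 degradation (5) were 0 with shortened lists and 5 to 8 leaving out 1 library, 8 without Rad21-degron replicate 1 with IAA. Those with fewer Rad21 peaks after CTCF degradation (2) were 0 at a q-value of 0.001 or less, 1 at a fold of 4 or more, 0 with shortened lists, 0 with 50 kb windows and 2 to 5 leaving out 1 library, 5 without parental replicate 3. No share of all gene windows was calculated for these settings. The replicate block, which asks for fewer peaks in every same-numbered pair, gave 7, 7 and 4 of 10 windows. Over all gene windows with a peak the shares were 76.9%, 76.3% and 43.3%. For same-numbered libraries the correlations in the other comparisons were 0.126, -0.04 and 0.080 for CTCF and 0.049 for Rad21 degradation. The 0.126 of CTCF replicate 1 was above the 0.109 of Rad21 replicate 2 after CTCF degradation. The all-gene shares beside these counts were added after seeing the data. Members with a Rad21 site at their own promoter (9, with Dntt through its wide merged site) were 3 at a q-value of 0.001 or less. That alternative was chosen after seeing the data. With 1 library left out the count stayed at 9.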
